A study of Homo sapiens with 6 samples.

Results

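The proteins that form and serve the nuclear pore were examined in HepG2, a line of human liver cancer cells with many hepatocyte traits, after transfection of an siRNA against UHMK1. The kinase UHMK1, whose U2AF homology motif is typical of splicing proteins, phosphorylates the splicing factor SF1. The set was defined by gene symbol: nucleoporins (NUP followed by digits, NDC1, POM121, RANBP2, TPR, AAAS and SEH1L) and karyopherins (KPNA, KPNB, TNPO, IPO and XPO genes), protein-coding only. Of 52 protein-coding RefSeq genes with such symbols, 48 were measured by a probe set carrying 1 gene symbol, among 33616 named genes in all. NUP62, NUP210L, IPO7 and IPO11 lie on probe sets shared with another symbol and were left out.

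RNA was collected 24 h after transfection with 30 nM siRNA, and 6 Affymetrix arrays were hybridised. The cells behind 3 arrays had received a scrambled siRNA and those behind the other 3 the UHMK1 siRNA, both delivered with Lipofectamine RNAiMAX. All cells were HepG2 without another genetic change named in the labels, and no label gives separate cultures to the samples of a group. The p-values therefore reflect the spread between these arrays alone, and that spread may be technical. With 6 arrays the precision is limited. Because 1 siRNA preparation was compared with 1 control, loss of UHMK1 and other effects of that siRNA cannot be told apart.

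The nuclear pore complex is a ring-shaped channel through the nuclear envelope, built from scaffold nucleoporins and lined by nucleoporins with phenylalanine-glycine repeats that form its permeability barrier. Karyopherins carry cargo through it: importins bind nuclear localisation signals in the cytoplasm, exportins bind nuclear export signals in the nucleus, and the GTPase Ran sets the direction of transport. In the classical import route an importin alpha adaptor holds the cargo and importin beta carries the pair through the pore.

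UHMK1 itself stood at 11.42, 11.24 and 11.74 on the scrambled siRNA arrays and at 8.36, 7.80 and 7.94 on the UHMK1 siRNA arrays, in log2 signal. The hepatocyte markers, among them ALB, AFP and APOB, had mean levels between 14.36 and 19.10 over the 10 measured. Endothelial markers had mean levels between 3.56 and 6.19, near the lower end of the scale. The immune list ran from 5.03 to 11.62. Its highest was CD68, with a mean of 11.77 with scrambled siRNA and of 11.47 with UHMK1 siRNA. PTPRC on that list had a mean of 4.97 with scrambled siRNA and of 5.11 with UHMK1 siRNA. The fibroblast and stellate list ran from 4.48 to 10.19, the highest being COL1A1.

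Of the 48 transcripts, 4 fell and 1 rose after UHMK1 siRNA. The falls were those of XPO5, which exports microRNA precursors, NUP58, a repeat nucleoporin of the central channel, IPO4, an importer of histones and ribosomal proteins, and KPNB1, importin beta itself. The rise was that of KPNA5, an importin alpha. A gene is said to have fallen or risen where limma's adjusted p, taken over all 33616 genes, was under 0.05, and each change is the UHMK1 siRNA mean minus the scrambled siRNA mean on the log2 scale. Among all named genes 2.67% fell and 0.726% rose, and among the 17575 protein-coding genes 4.57% fell and 1.14% rose. With 1 array left out, 2 of the 48 fell without scrambled siRNA array 1, 2 or 3 or UHMK1 siRNA array 1, and 3 fell without UHMK1 siRNA array 2 or 3. Falls over all 33616 genes also became fewer, from 897 to 365, 319 and 375 without scrambled siRNA array 1, 2 and 3. They were 567, 662 and 553 without UHMK1 siRNA array 1, 2 and 3.

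The 4 falls make 8.33% of the 48 transcripts. Brighter probe sets passed the test more often, and 32 of the 48 had a mean log2 level from 10 to under 14. Among protein-coding genes with a level of 10 to under 12, 10.7% fell, against 2 of the 18 nucleoporins and karyopherins there, XPO5 and NUP58. At a level of 12 to under 14, 10.3% of protein-coding genes fell, against 0 of 14 in limma. At 8 to under 10, 8.43% of protein-coding genes fell, against 0 of 6, and at 14 to under 16, 8.66% did, against 0 of 5. At these levels the calls were near or below the share of genes of like signal. IPO4 and KPNB1 lay outside these levels, so the 8.33% over all 48 was not matched for signal. At an unadjusted p under 0.05 in limma, 26 of the 48 were lower and 3 higher, against 15.5% and 5.74% of protein-coding genes. At that threshold 9 of the 18 at a level of 10 to under 12 were lower, where 28.5% of protein-coding genes were, and 12 of the 14 at 12 to under 14, where 28.2% were.

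Most of the 48 lay lower by amounts that did not pass. The change was negative in 38 of 48, or 79.2%, against 60.6% of protein-coding genes, and the median change was -0.39, against -0.07. It was -0.33 for the 18 at a level of 10 to under 12, where protein-coding genes had a median of -0.15, and -0.48 for the 14 at 12 to under 14, where they had -0.14. The 6 at a level of 8 to under 10, which include NUP98 with its uncertain probe set, did not lie lower, with a median of 0.01 against -0.16. The 5 at 14 to under 16 had -0.09 against -0.14. In 28 of the 48, or 58.3%, every UHMK1 siRNA array lay below every scrambled siRNA array, which held for 20% of protein-coding genes, for 33.7% of those at 10 to under 12 and for 39% at 12 to under 14. The opposite held for 3, or 6.25%, against 8.34% of protein-coding genes. After quantile or cyclic loess normalization, 34 of 48 changes were negative, with medians of -0.24 and -0.26. The changes of RANBP2 and AAAS at the cytoplasmic face, of NUP210 in the pore membrane and of the importin IPO5 turned from negative to positive under cyclic loess, all of them far from the threshold.

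**Figure D1:**
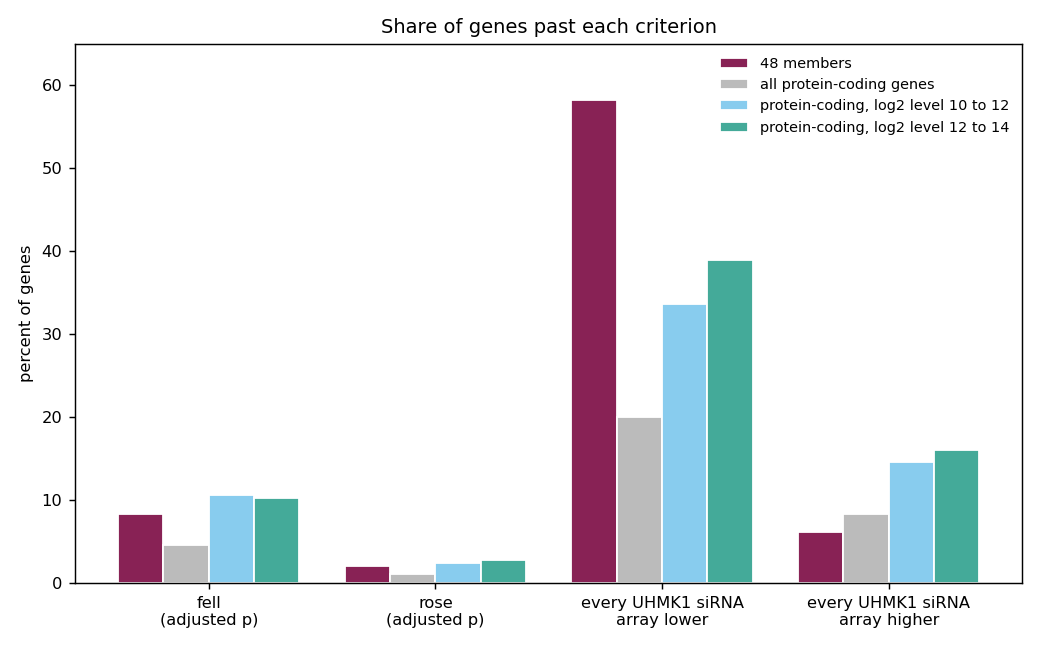
Percent of genes past each of 4 criteria, for the 48 nucleoporins and karyopherins and for 3 sets of protein-coding genes. The share that fell by the adjusted p was 8.33% for the 48 and 10.7% at a log2 level of 10 to under 12, while every UHMK1 siRNA array was lower for 58.3% of the 48 and for 33.7% at that level.

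UHMK1 siRNA array 2 stood apart. Its median offset from the scrambled siRNA mean was -0.25 over the 8865 genes brighter than a mean log2 level of 8, while UHMK1 siRNA arrays 1 and 3 had -0.03 and -0.06. The median of the 48 transcripts lay at -0.24, -0.53 and -0.30 on UHMK1 siRNA arrays 1, 2 and 3, which differs from those bright genes by -0.21, -0.28 and -0.24 on the same arrays. Array 2 had the lowest of the 3 UHMK1 siRNA values in 31 of the 48, or 64.6%, and in 63.5% of the bright genes. Without it the median change of the 48 was -0.32, and 3 fell and 1 rose, where 3.38% of protein-coding genes fell and 1.17% rose. Its omission moved the change by over 1.5 times or turned its sign in 15 of the 48, of which 4 turned sign and 0 had passed in limma. The part of this array's offset in the single changes was not tested beyond these values.

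**Figure D2:**
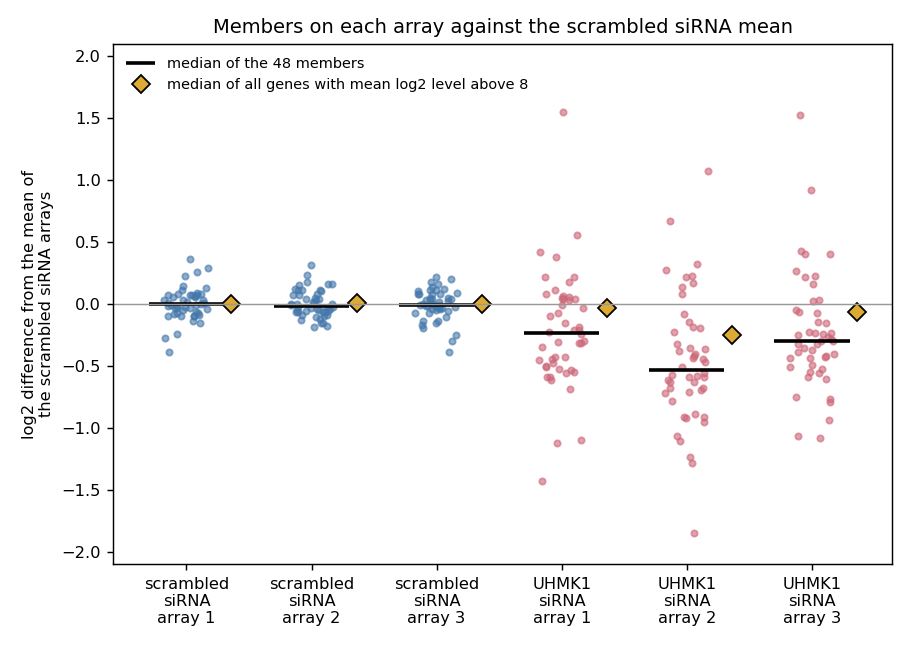
Each point is 1 of the 48 transcripts on 1 array, as the log2 difference from its mean over the scrambled siRNA arrays; black bars mark the median of the 48 and diamonds the median of all genes with a mean log2 level above 8. The 48 lie lower than the bright genes on all 3 UHMK1 siRNA arrays, at differences of -0.21, -0.28 and -0.24.

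Among the exportins, which carry cargo out of the nucleus, 1 of 5 fell, where 4.57% of protein-coding genes did. The share was 10.7% at a level of 10 to under 12 and 10.3% at 12 to under 14. All 5 had every UHMK1 siRNA array below every scrambled siRNA array. That held for 20% of protein-coding genes, for 33.7% at a level of 10 to under 12 and for 39% at 12 to under 14. XPO5 (Entrez gene 57510) stood at 12.52, 12.55 and 12.70 on scrambled siRNA arrays 1, 2 and 3 and at 11.16, 11.48 and 11.52 on UHMK1 siRNA arrays 1, 2 and 3. The groups were far apart, and here the lowest value was that of UHMK1 siRNA array 1 and not of array 2. XPO5 fell by 1.20 (SE 0.16, 95% confidence interval -1.56 to -0.84, adjusted p = 0.00452), a 2.30-fold difference, from 12.59 ± 0.10 to 11.39 ± 0.20 (SD, n = 3). Leaving out any 1 array kept the call, and the change then lay between -1.27 and -1.09.

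The other exportins had smaller differences that did not pass. XPO4, which exports the translation factor eIF5A, stood at 11.98, 12.23 and 12.15 with scrambled siRNA and at 11.56, 11.54 and 11.37 with UHMK1 siRNA, a change of -0.63 (adjusted p = 0.0577). XPO6, the exporter of actin bound to profilin, was at -0.55 (adjusted p = 0.102) and XPO7, a receptor of broad cargo range, at -0.50 (adjusted p = 0.157). XPO1, also called CRM1, is the main exporter of proteins with a leucine-rich export signal. It stood at 14.57, 14.54 and 14.50 with scrambled siRNA and at 14.29, 13.98 and 14.13 with UHMK1 siRNA, so its groups did not overlap, at a change of -0.40 (adjusted p = 0.221). The median change of the 5 exportins was -0.55, and their range ran from -1.20 to -0.40.

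Of 9 import receptors of the importin beta family, 2 fell and 0 rose, against 4.57% and 1.14% of protein-coding genes. The share that fell was 10.7% at a level of 10 to under 12 and 10.3% at 12 to under 14. The change was negative in 8, against 60.6% of protein-coding genes, with a median of -0.43. IPO4 (Entrez gene 79711) stood at 7.87, 8.22 and 8.35 with scrambled siRNA and at 7.02, 6.30 and 7.21 with UHMK1 siRNA. The groups did not overlap, and UHMK1 siRNA array 2 was the lowest. IPO4 fell by 1.30 (SE 0.25, 95% confidence interval -1.86 to -0.75, adjusted p = 0.0235), from 8.15 ± 0.25 to 6.84 ± 0.48 (SD, n = 3), the most negative change of the 48. Without UHMK1 siRNA array 2 the change was -1.03 and still passed (adjusted p = 0.0323). The call was lost when scrambled siRNA array 1 (-1.44, adjusted p = 0.0546), 2 (-1.27, adjusted p = 0.105) or 3 (-1.20, adjusted p = 0.1) was left out, or UHMK1 siRNA array 1 (-1.39, adjusted p = 0.0574).

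KPNB1 (Entrez gene 3837), the carrier of the classical import route and of many cargoes that it binds without an adaptor, had closely spaced arrays. It stood at 16.82, 16.80 and 16.86 with scrambled siRNA and at 16.21, 16.04 and 16.28 with UHMK1 siRNA. The 2 groups lay apart by more than the spread within either. KPNB1 fell by 0.65 (SE 0.14, 95% confidence interval -0.97 to -0.33, adjusted p = 0.0441), leaving 63.7% of the scrambled siRNA signal. Leaving out any 1 array lost this call (changes of -0.70 to -0.58, adjusted p of 0.0815 to 0.148), as did quantile (-0.54, adjusted p = 0.0644) or cyclic loess normalization (-0.54, adjusted p = 0.0671). A second probe set listed for KPNB1, without an Entrez gene ID, lay between 3.47 and 4.35 on all arrays, near the lower end of the scale, and the mean of both probe sets gave -0.44 (adjusted p = 0.231).

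TNPO1, the transportin that imports hnRNP proteins such as HNRNPA1, stood at 13.39, 13.64 and 13.44 with scrambled siRNA and at 12.96, 12.57 and 12.88 with UHMK1 siRNA. Its change of -0.69 did not pass (adjusted p = 0.0602). Pseudogene copies TNPO1P1, TNPO1P2 and TNPO1P3, named after their values were seen, had changes of -0.60, -0.50 and -0.59, and a probe can bind such closely matching transcripts alike, so these are not separate observations. TNPO2, the close relative of TNPO1, was very even within each group, at 12.85, 12.79 and 12.89 against 12.37, 12.42 and 12.42, a change of -0.44 (adjusted p = 0.143). TNPO3, which imports SR splicing factors, stood at -0.26 (adjusted p = 0.617), with UHMK1 siRNA array 2 at 11.33 and the other UHMK1 siRNA arrays at 12.02 and 11.95. Its change was -0.04 without UHMK1 siRNA array 2.

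The remaining import receptors did not pass in either direction. IPO9, an importer of core histones, had a change of -0.43 (adjusted p = 0.27), and IPO5, an importer of ribosomal proteins, had -0.09 (adjusted p = 0.861). IPO8, known for binding Argonaute and SMAD proteins, had the widest spread after UHMK1 siRNA among the 48, with 10.57, 9.61 and 10.75 on arrays 1, 2 and 3 against 10.60, 10.49 and 10.49 after scrambled siRNA. Its change was -0.22, and it was 0.13 without UHMK1 siRNA array 2. IPO13, which works in import and export, was the exception of the group with 8.24, 8.18 and 8.26 after UHMK1 siRNA, all above the 7.76, 7.98 and 7.84 after scrambled siRNA. Its change of 0.37 did not pass (adjusted p = 0.254). The probe set that IPO7 shares with SNORA23 stood at 15.10, 15.15 and 15.15 with scrambled siRNA and at 14.50, 14.38 and 14.22 with UHMK1 siRNA. The one that IPO11 shares with LRRC70 stood at 12.98, 13.14 and 12.59 against 12.30, 12.04 and 12.25. Both were left out by the rule, and neither can be assigned to 1 gene.

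The importin alphas, the adaptors that bind classical nuclear localisation signals, had mixed signs: 1 of 7 rose, 0 fell, and 4 changes were negative and 3 positive. Among protein-coding genes 1.14% rose and 4.57% fell. At a level of 8 to under 10, where KPNA5 lies, 2.1% rose. KPNA5 (Entrez gene 3841) stood at 8.97, 8.64 and 8.43 with scrambled siRNA and at 10.23, 9.75 and 10.21 with UHMK1 siRNA. All UHMK1 siRNA arrays were higher, and array 2, which lay low for most bright genes, was the lowest of them. KPNA5 rose by 1.38 (SE 0.20, 95% confidence interval 0.93 to 1.83, adjusted p = 0.00702), from 8.68 ± 0.27 to 10.06 ± 0.27 (SD, n = 3), a 2.61-fold difference. Leaving out any 1 array kept the call, and the change then lay between 1.26 and 1.54.

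KPNA1 and KPNA6, which form a subfamily with KPNA5, did not pass. KPNA1 stood at 11.17, 11.06 and 11.25 with scrambled siRNA and at 10.85, 10.69 and 10.84 with UHMK1 siRNA, a change of -0.37 (adjusted p = 0.259) opposite in sign to that of KPNA5, and KPNA6 had -0.17 (adjusted p = 0.729). A second probe set for KPNA1 gave 0.22 and one for KPNA6 gave -0.80, both at lower signal. The pair of KPNA3 and KPNA4, another subfamily, also lay on opposite sides of 0. KPNA3 stood at 11.84, 11.89 and 11.85 with scrambled siRNA and at 12.28, 12.53 and 12.29 with UHMK1 siRNA, all higher, at 0.51 (adjusted p = 0.114), and its second probe set gave 0.50. KPNA4 stood at 12.57, 12.46 and 12.43 against 12.14, 11.86 and 12.10, all lower, at -0.45 (adjusted p = 0.169). The differences between these relatives were not tested.

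KPNA2, the importin alpha typical of dividing cells, had tight groups with 17.04, 17.07 and 17.09 against 16.97, 16.74 and 16.91. Its change was small, at -0.19 (adjusted p = 0.6, 95% confidence interval -0.52 to 0.13). KPNA7, known from oocytes and early embryos, lay low on the scale with 6.04, 5.61 and 5.37 against 6.23, 5.75 and 6.59, so that its groups overlapped (0.52, adjusted p = 0.373).

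**Figure D3:**
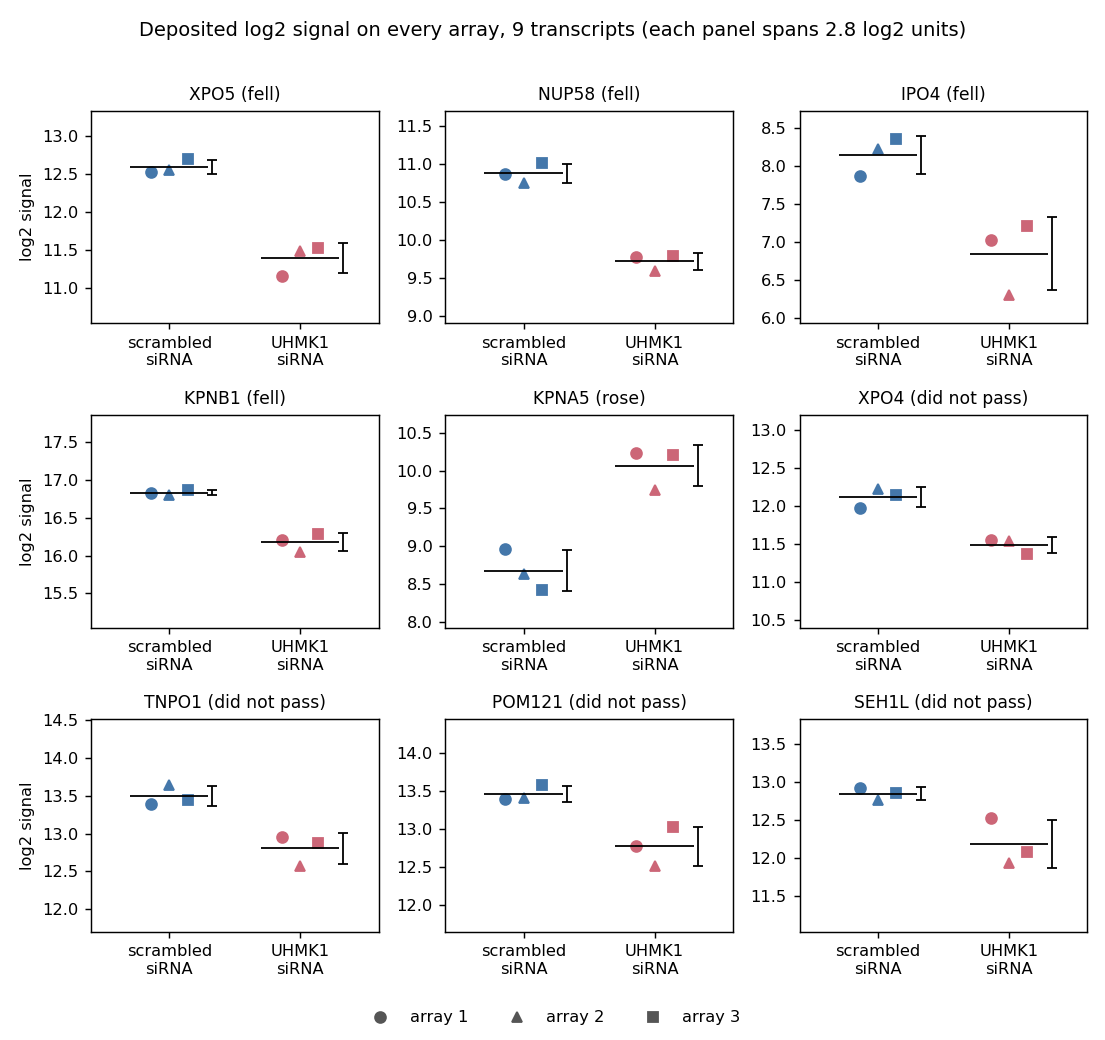
Deposited log2 signal on each of the 6 arrays for the 5 transcripts that passed and the 4 with an adjusted p between 0.05 and 0.10; lines mark group means and bars the SD (n = 3). KPNA5 is higher after UHMK1 siRNA while the other 8 are lower. The groups are separate in all 9 panels, but these were chosen by adjusted p, so the separation is not a further result. Among protein-coding genes every UHMK1 siRNA array was lower in 20% and higher in 8.34%.

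Of the 27 nucleoporins 1 fell and 0 rose, against 4.57% and 1.14% of protein-coding genes. At a level of 10 to under 12, 10.7% of protein-coding genes fell and 2.47% rose, and at 12 to under 14, 10.3% fell and 2.84% rose. The change was negative in 21, against 60.6% of protein-coding genes, with a median of -0.35. NUP58 (Entrez gene 9818), which sits with NUP54 and NUP62 in the central channel and carries the repeats that transport receptors touch, was the one that fell. It stood at 10.87, 10.75 and 11.01 with scrambled siRNA and at 9.78, 9.59 and 9.79 with UHMK1 siRNA. The groups were separated by about 1 log2 unit, with little spread in either. NUP58 fell by 1.16 (SE 0.15, 95% confidence interval -1.50 to -0.82, adjusted p = 0.00419), from 10.88 ± 0.13 to 9.72 ± 0.11 (SD, n = 3), a 2.23-fold difference. Leaving out any 1 array kept the call, and the change then lay between -1.22 and -1.09.

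The other channel genes in the set did not pass. Its partner NUP54 stood at 10.89, 10.86 and 10.58 against 10.81, 11.05 and 10.54, a change of 0.02 (95% confidence interval -0.38 to 0.43), so the interval of NUP54 does not reach that of NUP58. NUP62CL, a short relative of NUP62, had a change of 0.08. The probe set that NUP62 shares with IL4I1, left out by the rule, stood at 11.71, 11.92 and 12.12 with scrambled siRNA. With UHMK1 siRNA it stood at 11.31, 10.90 and 11.32, all lower, and it cannot be assigned to NUP62 alone. NUP98, whose product also gives rise to the scaffold protein NUP96, had 0.06 (adjusted p = 0.929). Its probe set carries no Entrez gene ID, and a brighter one that lists NUP98 beside CHRNA10 was left out. That one stood at 13.21, 13.32 and 13.13 with scrambled siRNA and at 13.14, 12.80 and 13.11 with UHMK1 siRNA. Its groups overlapped and its UHMK1 siRNA mean was the lower, so the NUP98 value and its sign are uncertain.

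All 7 measured members of the Y complex, the scaffold of the outer rings, had negative changes between -0.67 and -0.17, with a median of -0.44. The change was negative in 60.6% of protein-coding genes, in 63.9% at a level of 10 to under 12 and in 65.2% at 12 to under 14. In limma 0 of the 7 passed, and 6 were lower at an unadjusted p under 0.05. At that threshold 15.5% of protein-coding genes were lower, 28.5% at a level of 10 to under 12 and 28.2% at 12 to under 14. SEH1L, which the Y complex shares with a nutrient-sensing complex of the lysosome, stood at 12.92, 12.76 and 12.86 with scrambled siRNA and at 12.53, 11.93 and 12.08 with UHMK1 siRNA (-0.67, adjusted p = 0.0983). The groups did not overlap, and UHMK1 siRNA array 1 lay closest to the controls. NUP37 had -0.60, NUP160 had -0.56, NUP43 had -0.44, NUP85 had -0.43 and NUP107 had -0.35, all with groups that did not overlap. Every UHMK1 siRNA array was lower in 20% of protein-coding genes, in 33.7% at a level of 10 to under 12 and in 39% at 12 to under 14. NUP133 was the exception among these 7, with 10.65, 10.59 and 10.04 against 10.47, 10.02 and 10.28 and a change of -0.17 (adjusted p = 0.779). SEC13 and AHCTF1 of the same complex lie outside the set defined by symbol and were named after their values were seen. They had -0.16 and -0.20, both with overlapping groups.

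The 5 inner ring genes, which encode the scaffold around the channel, also had negative changes, as 60.6% of protein-coding genes did, with a median of -0.53. In limma 0 passed, and 3 were lower at an unadjusted p under 0.05. At that threshold 15.5% of protein-coding genes were lower, 28.5% of those at a level of 10 to under 12 and 28.2% at 12 to under 14. NUP93, the anchor of this ring, stood at 13.12, 12.90 and 13.13 against 12.55, 11.81 and 12.56. UHMK1 siRNA array 2 was much the lowest, and the change was -0.74 (adjusted p = 0.122) with it and -0.49 (adjusted p = 0.157) without it, a difference of over 1.5 times. NUP155 showed the same pattern with 12.40, 12.54 and 12.46 against 11.94, 11.40 and 12.18, at -0.63 with array 2 and -0.41 without it. NUP35 had -0.53 (adjusted p = 0.176), NUP188 had -0.30 and NUP205 had -0.25. A second probe set for NUP188 lay between 4.15 and 5.14, with a change of 0.52. Only NUP205 had overlapping groups, and the others had every UHMK1 siRNA array lower. That held for 20% of protein-coding genes, for 33.7% at a level of 10 to under 12 and for 39% at 12 to under 14.

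Of the 3 pore membrane genes POM121 was nearest to the threshold, with 13.39, 13.41 and 13.58 against 12.77, 12.51 and 13.03 (-0.69, adjusted p = 0.0704). POM121C and POM121B, near-identical copies of it, had changes of -0.41 and -0.50, and their probes may bind POM121 transcripts. NDC1, which anchors the scaffold in the membrane, had -0.47 (adjusted p = 0.175) with groups that did not overlap. NUP210, a membrane glycoprotein whose presence differs between cell types, had -0.03 (adjusted p = 0.963).

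The genes of the cytoplasmic face and of the nuclear basket had few shifts. NUP42, which serves messenger RNA release on the cytoplasmic side, stood at 11.63, 11.55 and 11.66 against 11.30, 10.90 and 11.31 (-0.44, adjusted p = 0.224). NUP88 had -0.24 (its dimmer second probe set had -0.61), RANBP2, the large filament protein with SUMO ligase activity, had -0.11, AAAS had -0.09 and NUP214, the partner of NUP88, had 0.22 (adjusted p = 0.607), all with overlapping groups. RGPD3 and RGPD4, copies of RANBP2, had -0.18 and -0.04. In the basket, NUP153 stood at 15.17, 15.23 and 14.95 against 14.66, 14.54 and 14.76, a change of -0.46 (adjusted p = 0.167) with no overlap. NUP50, which helps release importin alpha from cargo, had 0.10 and TPR, the main strand of the basket, had 0.04.

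**Figure D4:**
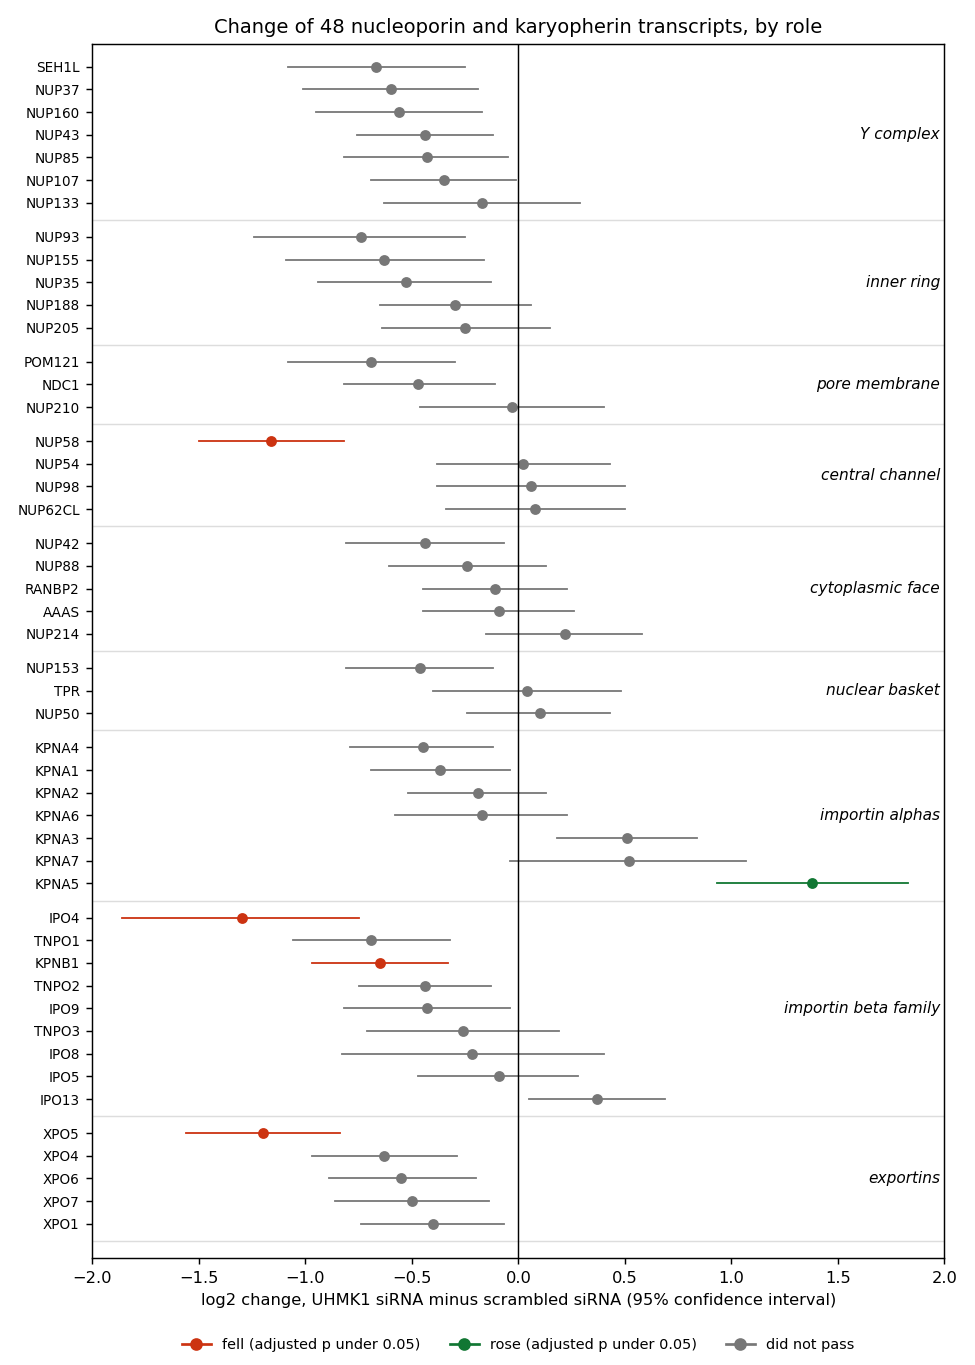
Log2 change of each of the 48 transcripts (points) with its 95% confidence interval (lines), grouped by role. XPO5, NUP58, IPO4 and KPNB1 fell and KPNA5 rose. All exportins, Y complex and inner ring genes lie left of 0, where 60.6% of protein-coding genes had a negative change.

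The regions just before the gene starts are shown for XPO5, NUP58 and IPO4, the fallen genes with an entry in the RefSeq promoter table (GRCh38.p14). Each is the 250 bases before the start, in the sense of the gene, and capitals mark GC boxes. XPO5 lies on the minus strand (chr6:43576039-43576288), NUP58 on the plus strand (chr13:25301375-25301624) and IPO4 on the minus strand (chr14:24188817-24189066).
XPO5: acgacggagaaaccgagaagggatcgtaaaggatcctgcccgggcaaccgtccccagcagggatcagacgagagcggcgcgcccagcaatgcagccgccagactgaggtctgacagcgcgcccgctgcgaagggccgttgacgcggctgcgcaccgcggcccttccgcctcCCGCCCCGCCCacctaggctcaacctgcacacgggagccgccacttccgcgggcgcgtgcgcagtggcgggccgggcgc
NUP58: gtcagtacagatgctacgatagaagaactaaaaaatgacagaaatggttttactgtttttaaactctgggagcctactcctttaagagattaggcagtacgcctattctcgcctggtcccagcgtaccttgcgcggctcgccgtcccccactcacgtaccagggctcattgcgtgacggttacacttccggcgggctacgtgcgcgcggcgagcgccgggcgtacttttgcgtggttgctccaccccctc
IPO4: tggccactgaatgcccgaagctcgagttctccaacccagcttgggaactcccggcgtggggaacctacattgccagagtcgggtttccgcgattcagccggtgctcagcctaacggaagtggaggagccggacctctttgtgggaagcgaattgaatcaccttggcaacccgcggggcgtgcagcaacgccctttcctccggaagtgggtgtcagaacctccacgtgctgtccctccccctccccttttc

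These windows were searched on both strands. The GC box was written as GGGCGG and the CCAAT box by its own letters. The cell cycle element known as CHR was written as TTTGAA. The core of E2F sites was searched in a first form, TTCCCGC, and in another form, TTGGCGC, which can overlap a reverse CCAAT box. The core of NRF1 sites was written as GCATGCG. XPO5 held 2 GC boxes that begin at positions -79 and -74 from the start and overlap each other by 1 base, while NUP58 and IPO4 held none of these motifs. The GC content was 72.4% for XPO5, 55.6% for NUP58 and 61.2% for IPO4. So the 3 fallen genes shared no match, which says only that these letters are not in these windows.

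Of the 48 genes, 42 had a window, and NUP43, XPO7, KPNA5, KPNA4, KPNA7 and KPNB1 had none in that table. A GC box was in 26 of the 42 (61.9%) and in 42.6% of all 35116 windows of this length, and a CCAAT box was in 20 (47.6%), against 32.0%. CHR was in 8 (19.0%, against 13.3%), TTCCCGC in 5 (11.9%, against 5.52%), GCATGCG in 3 (7.14%, against 3.39%) and TTGGCGC in 1 (2.38%, against 2.56%). Some genes have several windows and were counted when any of them matched, and the comparison windows include noncoding genes, so the shares are descriptions.

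Genes that work beside the pore also held a few falls. For comparison, 4.57% of protein-coding genes fell, 10.7% of those at a level of 10 to under 12 and 10.3% at 12 to under 14. In the Ran cycle 2 of 6 measured genes fell and 0 rose, with a median change of -0.62. RANGAP1, which makes Ran hydrolyse GTP at the cytoplasmic face of the pore, stood at 10.68, 10.84 and 10.74 against 9.97, 9.78 and 9.79 and fell by 0.91 (SE 0.14, adjusted p = 0.0108). NUTF2, the carrier that returns Ran to the nucleus, stood at 13.93, 14.16 and 14.12 against 13.17, 12.56 and 13.18 and fell by 1.10 (SE 0.20, adjusted p = 0.0185). RAN itself had -0.16 (adjusted p = 0.692), and its cofactor RANBP1 had -0.49 (adjusted p = 0.177). RAN and RANBP1 were named after their values were seen. In limma 1 of these falls was left when scrambled siRNA array 1 was omitted and 0 when scrambled siRNA array 2 or 3 was. Without scrambled siRNA array 1, 2 and 3, the falls over all 33616 genes went from 897 to 365, 319 and 375.

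Among 19 mRNA export genes 3 fell and 0 rose, where 4.57% of protein-coding genes fell and 10.7% of those at a level of 10 to under 12. Every one of the 19 had a negative change, with a median of -0.35. The change was negative in 60.6% of protein-coding genes, in 63.9% at a level of 10 to under 12 and in 65.2% at 12 to under 14. SEM1 (-0.02), ENY2 (-0.10) and NXT2 (-0.15), named after their values were seen, had overlapping groups. The sign of such small changes is uncertain. THOC3 of the THO complex, which couples transcription to export, stood at 13.24, 13.32 and 13.00 against 11.98, 11.07 and 11.83 and fell by 1.56 (SE 0.24, adjusted p = 0.00911). THOC6 of the same complex fell by 0.83 (adjusted p = 0.0167) and MCM3AP, the scaffold of a second export complex, fell by 0.73 (adjusted p = 0.0412). In limma 2 falls were left when UHMK1 siRNA array 2 was omitted, 1 when UHMK1 siRNA array 3 was and 0 when scrambled siRNA array 1 or 2 was. Over all 33616 genes 897 fell with all arrays. Without UHMK1 siRNA array 2 and 3 there were 662 and 553 falls, and without scrambled siRNA array 1 and 2 there were 365 and 319. THOC2 and THOC5, of the same THO complex and named after their values were seen, had -0.19 and -0.17.

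Among 13 other transport receptors, adaptors and pore proteins, 0 passed in limma and 4 were lower at an unadjusted p under 0.05. At that threshold 15.5% of protein-coding genes were lower. The share was 28.5% at a level of 10 to under 12, 28.2% at 12 to under 14 and 26.5% at 14 to under 16. Of the 13 changes 11 were negative, with a median of -0.17. The exportin CSE1L, which returns importin alpha to the cytoplasm, had -0.35 (adjusted p = 0.264), the tRNA exporter XPOT had -0.38 (adjusted p = 0.312), RANBP6, an importin beta relative, had -0.59 (adjusted p = 0.172) and POM121C had -0.41 (adjusted p = 0.199). Of 15 genes of the lamina and the nuclear envelope 1 fell and 0 rose, where 4.57% of protein-coding genes fell and 1.14% rose. The median change of the 15 was -0.10, against -0.07. LEMD3, an inner membrane protein that binds SMADs, stood at 11.45, 11.32 and 11.48 against 10.33, 9.82 and 10.35 and fell by 1.25 (SE 0.18, adjusted p = 0.007). The lamins LMNA and LMNB1, named after their values were seen, had -0.21 (adjusted p = 0.669) and -0.17 (adjusted p = 0.663).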

How the data were processed

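The authors deposited log2 probe set values. The submitters' processing notes name RMA and Transcriptome Analysis Console 4.0; settings and probe set build are not given in the sources used here. RMA corrects background, normalizes arrays by quantiles and summarises probes. The deposited arrays still had medians of 4.40 to 4.55. In such bulk samples fewer cells of a type and less RNA per cell cannot be told apart. The values, 2.13 to 19.93 on 135750 probe sets, were used as deposited.

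Probe sets with 1 symbol (36176) took their names from the gene table of the array, updated by Entrez gene ID to RefSeq GRCh38.p14, and protein-coding status came from that ID or, without one, the symbol. For genes with several, the one of highest mean signal was kept, as for 6 of the 48 members. Groups were compared with limma 3.58.1 under R 4.3.3 (linear model with eBayes, two-sided, no covariates, Benjamini-Hochberg over 33616 genes), a test tried on simulated data. All members are named, and those that passed or had the smallest p of their role are given with every array. Of each related list the genes that passed are named, or the 4 of smallest p where none did; exceptions are stated. Members and lists were chosen with earlier results of these data known. Alternatives were 2 normalizations, the mean of all probe sets, a minimum mean log2 level of 5, adjustment over protein-coding genes, a trended robust eBayes, a replicate block and leaving out each array.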

Additional observations from a re-analysis of the deposited data

How the results depend on the processing

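The 48 nucleoporins and karyopherins gave 4 falls and 1 rise as reported. There were 3 falls after quantile normalization, after cyclic loess normalization and with the mean of all probe sets of a gene, and in each case KPNB1 was the one lost. Other settings gave more calls, among the 48 and among all genes, where 897 of 33616 fell in the main fit. With a mean log2 level above 5, 9 of the 48 fell, adding POM121, SEH1L, TNPO1, XPO4 and XPO6. In that fit 1308 of all 17983 genes fell. With adjustment over protein-coding genes only, 7 of the 48 fell, and 1067 of 17575 genes did. A trended and robust eBayes gave 12 falls and 2 rises among the 48, the second rise being KPNA3. Among all 33616 genes it gave 1285 falls and 400 rises. The adjustment over protein-coding genes kept the p-values of the main fit, so its added calls come from adjusting over fewer genes. The minimum level left each change as it was, with eBayes and the adjustment run on 17983 genes. The cause of the other differences was not tested. With 1 array left out the falls ranged from 2 to 3, the rises stayed at 1 and the median change ranged from -0.42 to -0.32. Over all 33616 genes the falls then ranged from 319 to 662. Cyclic loess without UHMK1 siRNA array 2, chosen after seeing the data, gave 3 falls, 1 rise and a median of -0.26. XPO5, NUP58 and KPNA5 passed in every one of these fits, and no called change reversed. Same-numbered arrays correlated at 0.05, 0.03 and -0.04 in their deviations from the group means, so the numbers were not taken as pairs; with the replicate block 3 fell and 1 rose, KPNB1 losing its call (adjusted p = 0.0981). Signal sets the limit for low probe sets such as KPNA7 and NUP62CL, and a change that did not pass is not shown to be absent.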
